A study of Mus musculus with 7 samples.

Results

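The insulin-like growth factor (IGF) system was examined in differentiated 3T3-L1 cells through 10 genes: the ligands Igf1 and Igf2, the receptors Igf1r and Igf2r, and the binding proteins Igfbp2, Igfbp3, Igfbp4, Igfbp5, Igfbp6 and Igfbp7. They were taken by gene symbol. Each was read from the array row that names that symbol alone, and each of the 10 had 1 such row, out of 18820 genes measured in this way. 3T3-L1 is an established mouse line of fibroblast-like cells that turn into fat cells under a hormone mixture. All cultures were started on human insulin with dexamethasone and isobutylmethylxanthine, which were given for 2 days, and were then kept on human insulin. They were kept in either DMSO (4 arrays) or 1 µM of a commercial SCD inhibitor (3 arrays) until RNA was taken on day 7. SCD is stearoyl-CoA desaturase, the enzyme that makes monounsaturated fatty acids. The labels do not give the compound's name. Every group holds the same line and the same insulin, so the IGF system was read in both groups under insulin.

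IGF1 and IGF2 are secreted peptides related to insulin that signal through the IGF1 receptor, a tyrosine kinase that insulin also activates at high dose. The IGF2 receptor does not signal in that way: it takes IGF2 to lysosomes for breakdown and also carries lysosomal enzymes tagged with mannose 6-phosphate. IGF binding proteins hold the ligands outside the cell and release them when proteases cut the binding protein, and IGFBP7 is a relative with low affinity for the IGFs. In fat cell precursors, insulin at the doses used to start differentiation acts partly through the IGF1 receptor, and mature fat cells are a source of IGF1.

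Of the 10 genes, 3 were higher and 2 lower with the inhibitor, and 5 did not pass an adjusted p of 0.05 in limma's fit over all genes. Igf2 and its clearance receptor Igf2r rose, and so did Igfbp7, while Igf1 and Igfbp4 fell. The largest change was a 1.36-fold increase of Igf2r, so all changes were below a doubling. Over all genes 8.00% passed, 3.62% higher and 4.37% lower. Among the brighter 50% of genes, which hold 6 of the members and the 5 that passed, the share was 14.9%, and among the dimmer 50%, which hold the other 4, it was 1.09%. The groups did not overlap in those 5 members, as in 17.3% of all genes (8.30% with the inhibitor arrays all above and 9.02% with them all below). The median difference of the 10 members was 0.01 and that of all genes -0.00 on the log2 scale. At an unadjusted p under 0.05 in limma stood 21.9% of all genes and 5 of the 10 members.

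**Figure D1:**
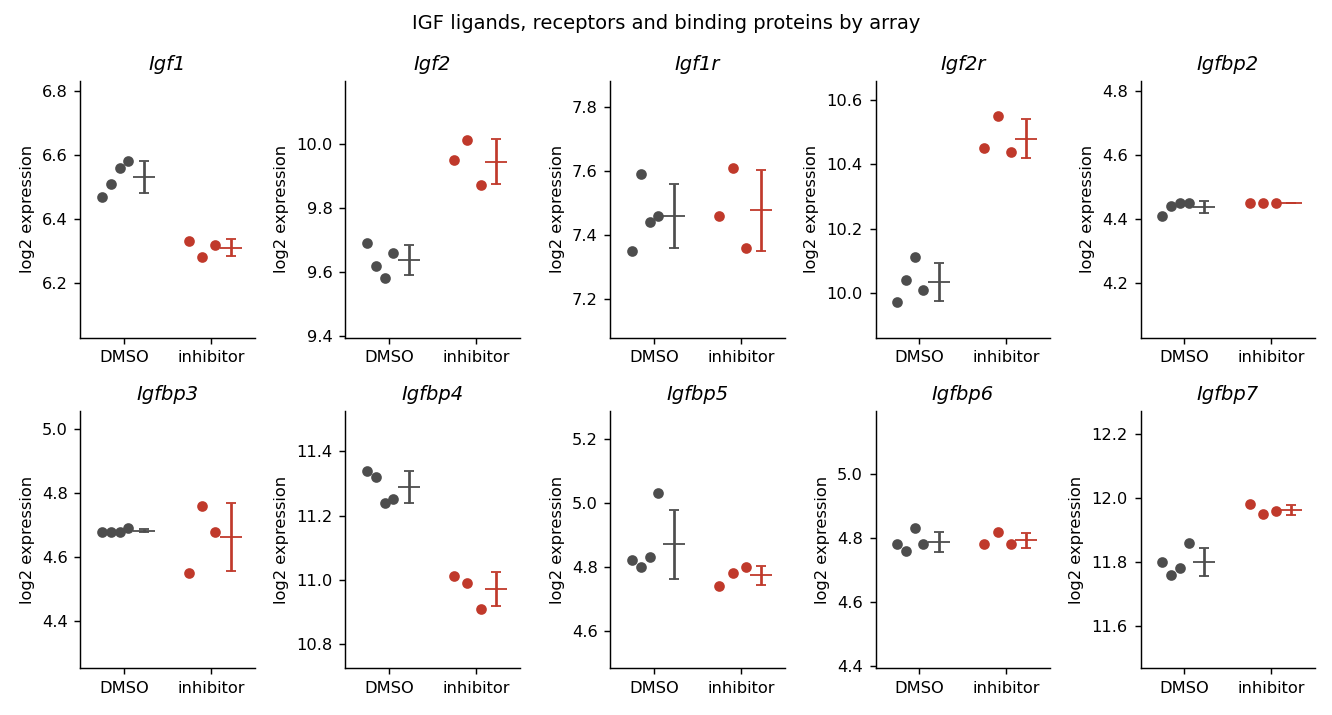
Log2 expression of each of the 10 members on every array (points), with DMSO (4 arrays, grey) and the SCD inhibitor (3 arrays, red), and the group mean with its SD beside them; every panel spans the same height of 0.8 log2. The groups lie apart for Igf1, Igf2, Igf2r, Igfbp4 and Igfbp7 and overlap for the others.

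The starts of the 5 genes that passed are shown so that the genes that rose can be set beside those that fell. Each run is the 150 bases before a RefSeq transcription start (build GRCm38.p6), read 5′ to 3′ on the strand of the gene. Capitals mark GGGCGG or its other strand CCGCCC (the GC box), TATAAA or TTTATA (the TATA box) and CCAAT or ATTGG (the CCAAT box). All 10 members matched the promoter table, in 14 windows. Igf2 has 4 of these, and the one with the most GC boxes is shown. Because it was picked by that trait, it cannot serve to compare GC boxes between genes that rose and fell. Which start is used in these cells was not tested.
Igf2r, chr17:12769707-12769856, minus strand: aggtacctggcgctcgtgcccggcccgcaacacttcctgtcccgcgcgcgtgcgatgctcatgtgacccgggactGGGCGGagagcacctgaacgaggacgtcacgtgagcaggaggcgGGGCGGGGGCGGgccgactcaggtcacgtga
Igfbp7, chr5:77408046-77408195, minus strand: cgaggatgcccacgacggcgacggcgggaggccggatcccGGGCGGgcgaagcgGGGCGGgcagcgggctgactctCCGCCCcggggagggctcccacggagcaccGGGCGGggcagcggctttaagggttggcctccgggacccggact
Igf2, chr7:142657497-142657646, minus strand: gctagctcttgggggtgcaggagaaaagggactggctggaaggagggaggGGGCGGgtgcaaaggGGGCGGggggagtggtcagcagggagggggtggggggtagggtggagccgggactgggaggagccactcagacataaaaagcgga
Igf1, chr10:87860961-87861110, plus strand: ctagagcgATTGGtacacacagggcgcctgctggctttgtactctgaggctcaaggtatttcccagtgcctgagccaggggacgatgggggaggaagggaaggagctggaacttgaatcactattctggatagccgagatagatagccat
Igfbp4, chr11:99041094-99041243, plus strand: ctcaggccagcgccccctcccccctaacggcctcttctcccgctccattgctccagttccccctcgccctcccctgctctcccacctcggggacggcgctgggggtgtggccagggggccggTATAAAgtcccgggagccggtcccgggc

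The Igf2r window held 3 GC boxes, of which a pair touch at 31 and 25 bases before the start, and the Igfbp7 window held 4, 1 of them on the other strand. The Igf2 window shown held 2, another of its windows held 1, and the other two held none. The Igf1 and Igfbp4 windows held none. Igfbp4 had a TATA box starting 28 bases before the start, and Igf1 a CCAAT box on the other strand. A GC box stood in 28.6% of all 150-base windows, a CCAAT box in 24.5% and a TATA box in 7.57%. GC boxes also stood before Igf1r (2) and Igfbp2 (3), which did not pass. Igfbp6, which did not pass either, had 1 TATA box, on the other strand, and 2 CCAAT boxes. TGATGNAAT or its other strand ATTNCATCA, an element of ATF4, and TGTTTAC or GTAAACA, an element of FOXO factors, were in none of the members' windows, and in 0.554% and 1.80% of all windows. These matches are letters in a window and were not tested as binding sites.

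Among the ligands, Igf2 was at 9.69, 9.62, 9.58 and 9.66 in DMSO 1 to 4 and at 9.95, 10.01 and 9.87 in SCD inhibitor 1 to 3. Every inhibitor array lay above every DMSO array. The rise was 1.24-fold (log2 0.31, SE 0.041, n = 3 against 4, adjusted p = 0.00644 in limma). It did not pass without both arrays numbered 1 (adjusted p = 0.0671). A second array row names Igf2 together with its antisense transcript Igf2os and was therefore not used for either. That row ran from 6.30 to 6.48 in DMSO and from 6.05 to 6.30 with the inhibitor, and its difference of -0.19 (SE 0.069, adjusted p = 0.213 over all array rows) had the opposite sign and did not pass.

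Igf1, the ligand that growth hormone induces, was at 6.47, 6.51, 6.56 and 6.58 in DMSO and at 6.33, 6.28 and 6.32 with the inhibitor. All inhibitor arrays lay below all DMSO arrays. The decrease was 1.16-fold (log2 -0.22, SE 0.032, adjusted p = 0.00899 in limma).

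Among the receptors, Igf2r was at 9.97, 10.04, 10.11 and 10.01 in DMSO and at 10.45, 10.55 and 10.44 with the inhibitor. The lowest inhibitor array, at 10.44, lay above the highest DMSO array, at 10.11. Igf2r rose by 0.44 (SE 0.041, adjusted p = 0.00148 in limma), with a 95% interval from 0.35 to 0.54. Igf1r, the signalling receptor, was at 7.35, 7.59, 7.44 and 7.46 in DMSO and at 7.46, 7.61 and 7.36 with the inhibitor. Its groups overlapped fully. The difference of 0.01 (SE 0.073) had a 95% interval from -0.16 to 0.19, so a change of that size in either direction would not have been seen.

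Among the binding proteins, Igfbp4, an inhibitory carrier cut by the protease PAPP-A, was at 11.34, 11.32, 11.24 and 11.25 in DMSO and at 11.01, 10.99 and 10.91 with the inhibitor. The groups were well apart, with the highest inhibitor array at 11.01 and the lowest DMSO array at 11.24. The decrease was 1.25-fold (log2 -0.32, SE 0.036, adjusted p = 0.00344 in limma). Igfbp7, a matrix-bound relative of the family, was at 11.80, 11.76, 11.78 and 11.86 in DMSO and at 11.98, 11.95 and 11.96 with the inhibitor. It had the smallest of the called differences, 1.12-fold (log2 0.16, SE 0.027, adjusted p = 0.0141 in limma). It did not pass when SCD inhibitor 3 was left out (adjusted p = 0.0564), or when DMSO 1 and SCD inhibitor 1 were left out together (0.112). Of the 101 genes at or above its level 6 passed, with no difference over 0.53. The median absolute difference of all genes that passed was 0.34. Whether differences at that level are compressed was not tested.

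Igfbp2, Igfbp3, Igfbp5 and Igfbp6 read between 4.41 and 5.03 on all arrays. The array medians over all rows, including those that name no gene, were 4.88 to 4.94. Among the genes measured, the share with a lower mean level ran from 38.4% for Igfbp2 to 43.4% for Igfbp5. None of these 4 genes passed in limma, nor at an unadjusted p under 0.05. Igfbp2, a carrier of IGF2 found in precursors, was at 4.41 to 4.45 in DMSO and 4.45 on each inhibitor array (log2 0.01, 95% interval -0.03 to 0.05). Igfbp3, the main carrier in blood, was at 4.68, 4.68, 4.68 and 4.69 in DMSO and at 4.55, 4.76 and 4.68 with the inhibitor (log2 -0.02, interval -0.13 to 0.09). Here the inhibitor arrays lay on both sides of the DMSO arrays. Igfbp5, which binds to matrix, was at 4.82, 4.80, 4.83 and 5.03 in DMSO and at 4.74, 4.78 and 4.80 with the inhibitor (log2 -0.10, interval -0.24 to 0.04). Igfbp6, which prefers IGF2, was at 4.76 to 4.83 in DMSO and 4.78 to 4.82 with the inhibitor (log2 0.01, interval -0.05 to 0.06). Such levels do not show whether these 4 genes were expressed, since detection calls were not used here.

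**Figure D2:**
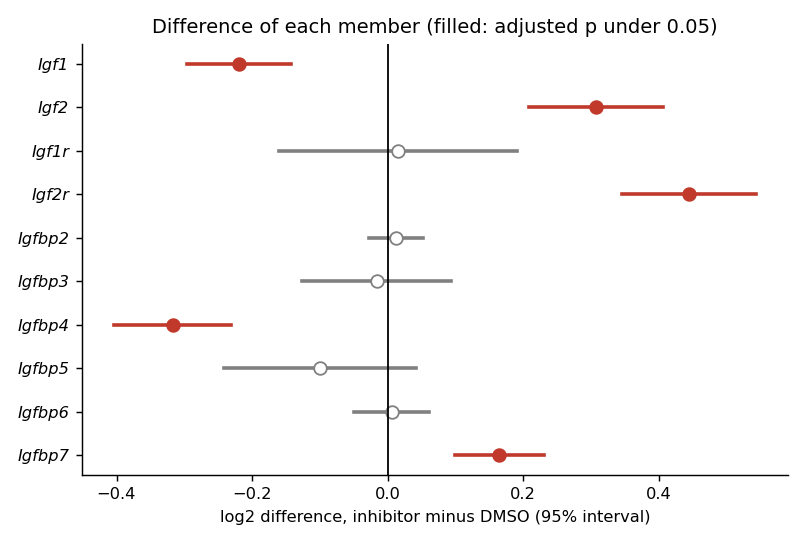
Difference of each member in log2, inhibitor (3 arrays) minus DMSO (4 arrays), with its 95% interval from limma; filled red points passed an adjusted p of 0.05. Igf2r, Igf2 and Igfbp7 lie above 0 and Igf1 and Igfbp4 below, and the intervals of the others cross 0.

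Genes around the members were counted from lists written for the pathway, and no list was tested as a set. For comparison with each count, 8.00% of all genes passed, and 14.9% of the brighter 50% of genes. Of 12 genes listed around IGF carriage and the processing of IGF binding proteins, 1 passed, and it was Pappa. Pappa encodes PAPP-A, the protease that cuts IGFBP4. It was at 5.75, 5.66, 5.65 and 5.57 in DMSO and at 6.31, 6.40 and 6.10 with the inhibitor. No arrays overlapped, and Pappa rose 1.53-fold (log2 0.61, SE 0.075, adjusted p = 0.00462 in limma), but did not pass once both arrays with the number 1 were dropped (0.0640). The transcripts of the protease and of its substrate Igfbp4 thus differed in opposite directions on the same arrays. Without SCD inhibitor 1, 2 genes of this list passed. Igfals, which encodes the acid-labile subunit of the circulating IGF complex, had a difference of 0.24 (adjusted p = 0.0941), and the liver-type carrier Igfbp1 one of 0.00 (SE 0.023), neither past the test, though Igfals passed with the arrays centred (0.0354). The list's median was 0.03.

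A list of 8 genes held the route from the growth hormone receptor to STAT5, which induces Igf1, and feedback inhibitors. Of these 8, 2 rose and 2 fell. Ghr, the receptor, was at 11.31, 11.32, 11.30 and 11.40 in DMSO and at 11.53, 11.66 and 11.67 with the inhibitor, and rose by 0.29 (SE 0.044, adjusted p = 0.0104 in limma). Stat5b, the transcription factor downstream, was at 8.50 to 8.57 in DMSO and 8.37 to 8.41 with the inhibitor. It fell by 0.15 (adjusted p = 0.0134), with adjusted p = 0.0533 without SCD inhibitor 3 and 0.0973 without both arrays numbered 1. Stat5a, the other STAT5 gene, was at 9.42 to 9.52 in DMSO and 9.52 to 9.71 with the inhibitor, with a difference of 0.12 (adjusted p = 0.231) on the same side of 0 as that of Ghr. Socs2, a feedback inhibitor that STAT5 induces, fell by 0.31 (adjusted p = 0.0323 in limma). Its call ended without DMSO 2 (0.0959), DMSO 3 (0.101), DMSO 4 (0.101), SCD inhibitor 1 (0.0808), SCD inhibitor 2 (0.0879) or SCD inhibitor 3 (0.0637). Socs3, a feedback inhibitor of cytokine receptors, rose by 0.27 (adjusted p = 0.0171), a call that ended without DMSO 2 (0.0584) or SCD inhibitor 3 (0.0521), and when all rows of the gene were averaged (0.207). Jak2, the kinase of the receptor, was at 8.27 to 8.45 in DMSO and 7.79 to 8.20 with the inhibitor, and its difference of -0.37 missed the threshold (adjusted p = 0.0676) but passed without SCD inhibitor 2 (0.0262). The number of genes that passed in this list was 2 without DMSO 2 and 1 without SCD inhibitor 3. Its median was 0.10.

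**Figure D3:**
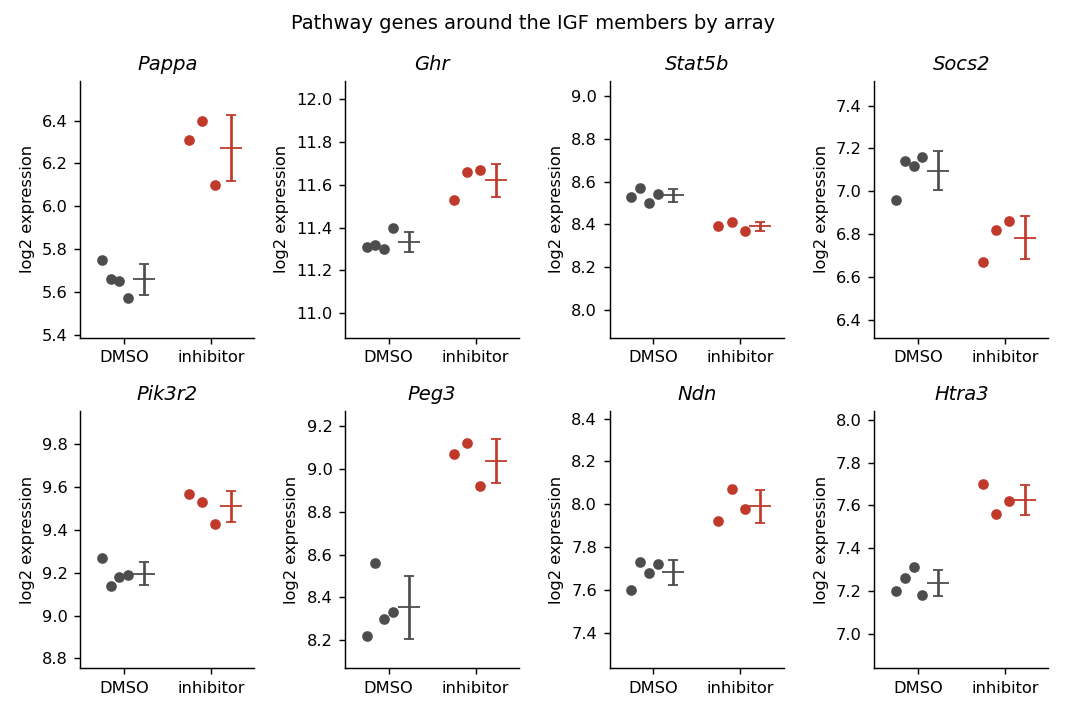
Log2 expression of 8 pathway genes on every array (points), DMSO (4 arrays, grey) and SCD inhibitor (3 arrays, red), with the group mean and SD beside them; every panel spans 1.2 log2. Pappa, Ghr, Pik3r2, Peg3, Ndn and Htra3 are higher and Stat5b and Socs2 lower with the inhibitor, with no overlap between groups in any of the 8.

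Of 24 measured genes of insulin and IGF1 receptor-proximal signalling, 2 rose and 2 fell, and the median was 0.01. For comparison, 8.00% of all genes passed, and 14.9% of the brighter 50%, which hold the 4 that passed here. The list also holds genes of the dimmer 50%, such as the Irs1 relatives Irs3 and Irs4, so neither share is an exact match. Pik3r2, a regulatory subunit of PI 3-kinase, was at 9.14 to 9.27 in DMSO and 9.43 to 9.57 with the inhibitor and rose by 0.31 (SE 0.042, adjusted p = 0.00633 in limma). Irs1, a docking protein of both receptors, rose by 0.24 (adjusted p = 0.0391). Its call ended without any 1 of the DMSO arrays 1 (0.0782), 2 (0.106), 3 (0.111) and 4 (0.106), and without SCD inhibitor 1 (0.0867) or 2 (0.130). Foxo1, a transcription factor that insulin and IGF signals keep out of the nucleus, fell by 0.30 (adjusted p = 0.0396). That call ended without DMSO 1 (0.0672), 2 (0.104), 3 (0.0978) or 4 (0.121), and without SCD inhibitor 2 (0.127) or 3 (0.106). Akt2, the kinase upstream of Foxo1, fell by 0.15 (adjusted p = 0.0383), and its call ended without DMSO 1 (0.0702), 2 (0.0917), 3 (0.0767) or 4 (0.0894), without SCD inhibitor 1 (0.107) or 2 (0.122), and when all rows of the gene were averaged (0.0732). Without any 1 of the DMSO arrays or SCD inhibitor 2 the list held 1 call, and without SCD inhibitor 1 it held 2. The insulin receptor gene Insr (log2 -0.09, SE 0.040), Irs2 (-0.00, SE 0.072) and the adaptor Grb10 (-0.05, SE 0.021) did not pass.

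Of 12 measured genes that bind Igf2 mRNA or are imprinted, as Igf2 and Igf2r are, 3 rose and none fell. Peg3, an imprinted zinc finger gene, was at 8.22, 8.56, 8.30 and 8.33 in DMSO and at 9.07, 9.12 and 8.92 with the inhibitor and rose by 0.68 (SE 0.086, adjusted p = 0.00504 in limma; 0.0736 without both arrays numbered 1). Ndn, which encodes necdin, an imprinted growth suppressor of precursors, was at 7.60 to 7.73 in DMSO and 7.92 to 8.07 with the inhibitor and rose by 0.31 (SE 0.046, adjusted p = 0.00955). Both stood clear of the DMSO arrays. Dlk1, the imprinted precursor gene known as Pref-1, rose by 0.32 (adjusted p = 0.0402), and its call ended without DMSO 2 (0.0826), 3 (0.0945) or 4 (0.123) and without SCD inhibitor 1 (0.0836), 2 (0.0928) or 3 (0.129). Airn, the noncoding RNA that silences the paternal copy of Igf2r, was at 9.04 to 9.16 in DMSO and 9.14 to 9.38 with the inhibitor. Its difference of 0.18 did not pass (adjusted p = 0.144), except when all its rows were averaged (0.0337). The median of this list was 0.07.

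Of 13 measured proteins outside the family that share its N-terminal domain, 2 rose. Htra3, a secreted serine protease, rose by 0.39 (SE 0.045, adjusted p = 0.00371 in limma), and Crim1, a membrane protein that binds BMPs, by 0.23 (adjusted p = 0.0220). The call of Crim1 ended without DMSO 1 (0.0635), 2 (0.0698), 3 (0.0707) or 4 (0.0620), and the list then held 1 call. The 6 CCN genes in it did not pass. Of 9 genes of mannose 6-phosphate sorting, the lysosomal role of the IGF2 receptor, 2 rose. Hexa, a lysosomal hexosaminidase subunit, rose by 0.29 (adjusted p = 0.0128; 0.0571 without SCD inhibitor 2 and 0.0558 without SCD inhibitor 3). Gnptab, which starts the mannose 6-phosphate tag, rose by 0.20 (adjusted p = 0.0244), a call that ended without DMSO 1 (0.0624), 3 (0.0782) or 4 (0.0580) and without SCD inhibitor 2 (0.0585) or 3 (0.0681). This list held 1 call without DMSO 3 or DMSO 4 and 0 without SCD inhibitor 2 or 3 (with all arrays, 7 of the 9 were at an unadjusted p under 0.05). The adaptors Gga1, Gga2 and Gga3, which sort the tagged enzymes, had differences of -0.10, -0.04 and -0.21, none past the test with all arrays and genes; Gga3 (adjusted p = 0.0603 in limma) passed with array weights (0.0368). In all 3 the inhibitor arrays lay below the DMSO arrays, and Gga1 and Gga3 were among the 7. The medians of the 2 lists were 0.02 and 0.12.

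**Figure D4:**
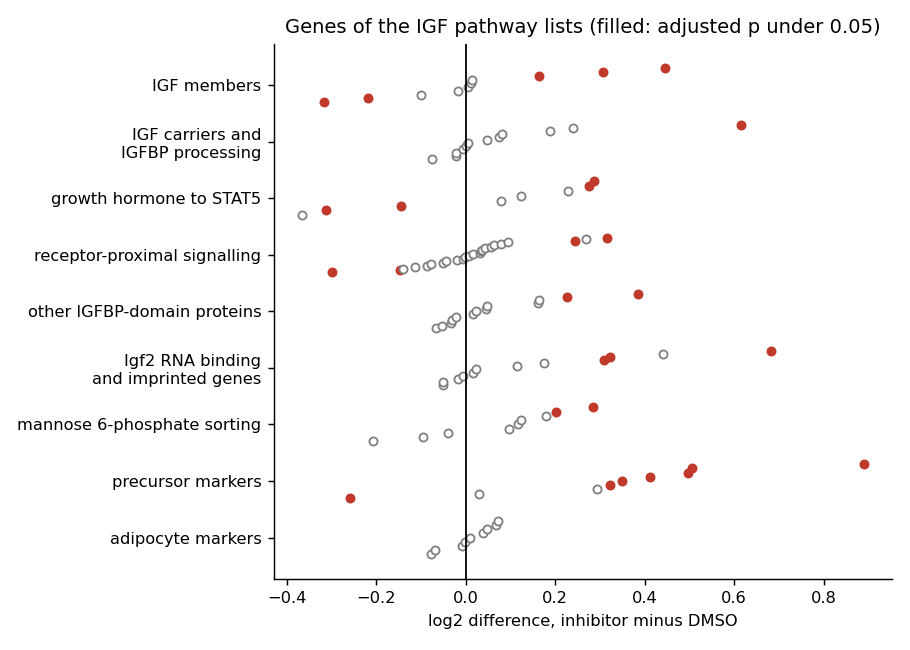
Difference in log2, inhibitor (3 arrays) minus DMSO (4 arrays), of every measured gene of the members, the 6 pathway lists and the precursor and adipocyte markers; filled red points passed an adjusted p of 0.05. Calls stand on both sides of 0 among the members, the growth hormone route and receptor-proximal signalling, and the adipocyte markers cluster around 0 with no call.

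The sample labels say pre-adipocyte, whereas the design text speaks of adipocytes. None of 9 adipocyte markers passed in limma, and 2 did at an unadjusted p under 0.05; Adipoq, which encodes adiponectin, had a mean of 12.39 in DMSO and of 12.44 on the inhibitor arrays. Of 9 markers of precursors and fibroblasts, 6 rose and 1 fell, and 4 passed without both arrays numbered 1. Pdgfra, a receptor of precursors, rose by 0.89 (SE 0.093, adjusted p = 0.00245 in limma), and Fn1, fibronectin, fell by 0.26 (adjusted p = 0.00839). The mean level of the precursor list ran from 9.12 to 9.22 over the DMSO arrays and from 9.46 to 9.56 over the inhibitor arrays, and that of the adipocyte list from 11.15 to 11.18 and from 11.11 to 11.20. The part of these markers in the differences of the IGF genes was not tested. In RNA of whole cultures, a different share of cells of a type and a different RNA level per cell cannot be told apart. The macrophage markers lay at a mean of 4.14 to 4.21 and the endothelial ones at 3.82 to 3.91, below the array medians, and none of 8 and none of 7 passed (1 and 0 at an unadjusted p under 0.05). Of 6 muscle markers 1 passed, Des, which encodes desmin and fell by 0.98. Marker levels at 0 do not occur on this scale.

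By likeness of profile over the 7 arrays, the genes nearest to each called member were taken by the root mean square difference of values centred per gene. They were Msmo1 (0.035) and Fcer1g (0.041) for Igf2r, Wdr13 (0.026) and Fam102a (0.027) for Igf2, Mfsd14a (0.019) and Hmgn2 (0.023) for Igfbp7, Tgfb1 (0.019) and Ube2a (0.026) for Igf1, and Got1 (0.025) and Iars (0.026) for Igfbp4, all in log2 units. With 7 arrays in 2 groups, this likeness is mostly that of the group difference.

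**Figure D5:**
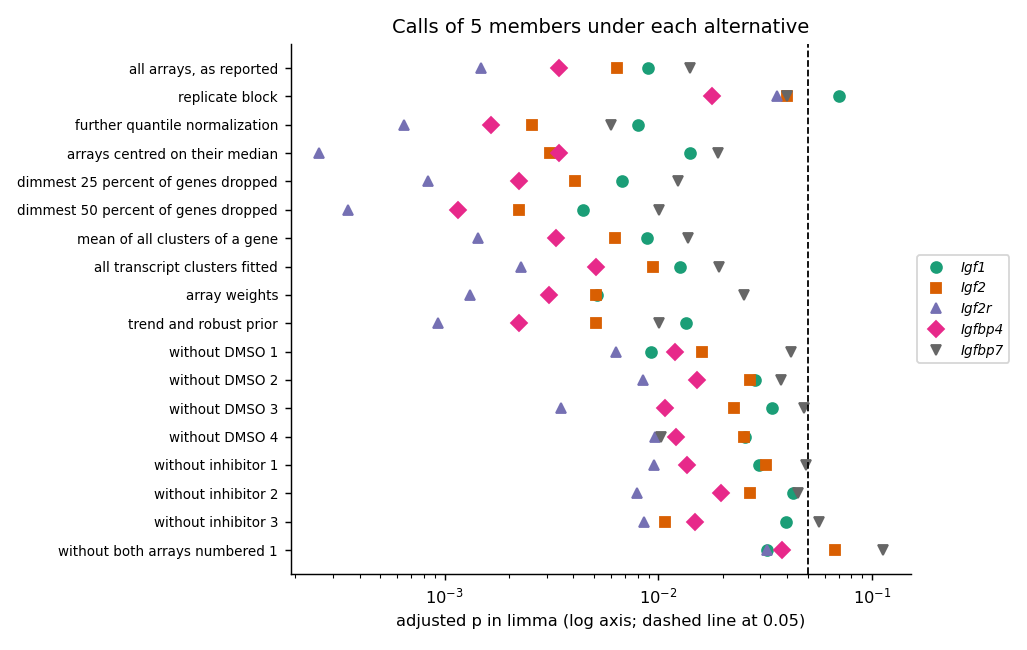
Adjusted p in limma (log axis, dashed line at 0.05) of the 5 members that passed with all arrays, under each of 17 alternatives. Igf2r and Igfbp4 stay left of the line throughout, Igf1 crosses it with the replicate number as a block, Igf2 without both arrays numbered 1, and Igfbp7 there and without SCD inhibitor 3.

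Igf2r and Igfbp4 passed under all 17 alternatives tried, with adjusted p in limma from 2.58e-04 to 0.0358 and from 0.00116 to 0.0378. Over all genes, the correlation between arrays ran from 0.99902 to 0.99948 within a group and from 0.99684 to 0.9975 between the groups. The number of arrays limits the precision: the median SE of a difference was 0.039. Whether the replicates were separate cultures is not stated in the labels, so the p-values reflect the spread among these 7 samples alone, and that spread may be technical.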

How the data were processed

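RNA of 7 samples was measured on Affymetrix whole-transcript arrays, 1 per sample. The deposited values are log2 expression levels, for which the submitters' processing notes name RMA; no version or filter is given in the sources used here. That they are log2 was inferred from their range (2.23 to 13.2). RMA corrects the background, brings arrays to 1 distribution and summarises the probes of a transcript cluster. Differences at both ends of the scale may be understated, which was not tested. Of 28996 clusters, 21218 name 1 gene in the array annotation, 1881 several and 5897 none; the first were used, with the cluster of the highest mean standing for each gene. The 18820 genes were fitted in limma 3.58.1 (R 4.3.3) with a term for the inhibitor, adjusted by Benjamini-Hochberg over all of them and called at an adjusted p under 0.05. The script was tested on simulated data. Groups came from the sample titles. The members, the lists and the alternatives were chosen with earlier results of these data known. Named were all members, up to 4 called genes of each list with the largest difference, 10 pathway genes fixed by name (H19 and Igf2bp2 had no row of their own), the nearest profiles and the chromosome neighbours. Jak2, Stat5a, Igfals, Fn1, Adipoq and the Gga genes stand outside this rule and were chosen after their values were seen. Promoter windows are from RefSeq (GRCm38.p6).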

Additional observations from a re-analysis of the deposited data

Results flagged for a closer look

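On DMSO 4, Igfbp5 read 5.03 while the other DMSO arrays read 4.80 to 4.83, a gap of 0.844 of the group's range, which is above Dixon's 95% limit. Without that array the difference of Igfbp5 was -0.05. Igfbp3 was flagged on the same array at 4.69, because the other DMSO arrays read exactly alike; the group's SD was 0.0034, so the gap is minute. These are 2 flags among 10 genes, and chance gives about 1 in 20.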

How the results depend on the processing

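Over the 17 alternatives the differences of the 10 members kept sign and side of the threshold 154 times, lost the call 4 times and changed sign 8 times. Leaving out 1 array at a time, the number of members higher ran from 2 to 3 and lower stayed at 2; without both arrays numbered 1 there was 1 higher (Igf2 at 0.32 and Igfbp7 at 0.16 did not pass). Without 1 array, Igfbp7 ran from 0.15 to 0.18. The labels state no pairing by replicate number. Deviations of same-numbered arrays correlated at 0.174, 0.138 and 0.0796. Differently numbered arrays were not compared, so these values cannot decide whether the numbers pair the samples. With the replicate block, where DMSO 4 has no partner and adds nothing, there was 1 lower (Igf1 at -0.20 did not pass, adjusted p = 0.0700 in limma) and 896 of all genes passed against 1505. The block gave 2 calls in receptor-proximal signalling, 0 among IGFBP-domain proteins (3 at an unadjusted p under 0.05 with all arrays) and 1 in mannose 6-phosphate sorting, the only list counts it moved by over 1.5 times. Of the other genes named as changed, Htra3 (adjusted p = 0.0594), Crim1 (0.0834), Stat5b (0.0627), Hexa (0.0568), Dlk1 (0.113), Foxo1 (0.163) and Akt2 (0.167) also lost their call with it. Without both arrays numbered 1, the calls of Socs3 (adjusted p = 0.0992 in limma), Fn1 (0.0807), Hexa (0.0707) and Gnptab (0.0864) ended. So did those of Crim1 (0.0984), Irs1 (0.129), Akt2 (0.151) and Dlk1 (0.0866). Jak2 and Igfals passed after quantile normalization (0.0228 and 0.0378), and Jak2, Igfals and Gga3 without the dimmest 50% (0.0235, 0.0378 and 0.0257).
Igf1r, Igfbp3 and Igfbp6, which never passed, changed sign: from -0.05 to 0.07, -0.06 to 0.04 and -0.01 to 0.02 without 1 array; without both arrays numbered 1, Igf1r was -0.01 and Igfbp3 0.04, and with array weights Igfbp3 was 0.01. Irs2 ran from -0.09 to 0.08 and Igfbp1 from -0.02 to 0.02 without 1 array; Irs2 was 0.00 after a further quantile normalization and 0.01 with arrays centred. The cause was not tested.
The processing list held 3 calls after quantile normalization, 3 with arrays centred, 3 without the dimmest 50%, 2 with array weights and 0 without both arrays numbered 1 (4 at an unadjusted p under 0.05 with all arrays), and 1 to 2 without 1 array. Receptor-proximal signalling held 1 with all transcript clusters fitted and 2 without both arrays numbered 1 (1 to 3 without 1 array), the growth hormone route 2 (1 to 4), IGFBP-domain proteins 1 (1 to 2), imprinted genes 1 (2 to 3) and mannose 6-phosphate sorting 1 (0 to 2). The last held 4 without the dimmest 25% or 50% and 4 with array weights. The highest counts under any alternative were 6 in receptor-proximal signalling, 6 in the growth hormone route, 3 among IGFBP-domain proteins and 4 among imprinted genes. Over all genes, calls ran from 808 without both arrays numbered 1 to 2064 after quantile normalization, with 949 without SCD inhibitor 3 and 980 without DMSO 4.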

Other observations

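On the chromosomes, genes with a row of their own were ordered by start coordinate. Those next before and after each member, members left out, numbered 18. None passed in limma, and 4 did at an unadjusted p under 0.05, where 21.9% of all genes stood. Their differences ran from -0.21 to 0.18. Next to Igf2 lie the genes of the microRNAs Mir675, which is cut from H19, and Mir483, which sits in Igf2. In this order Slc22a2 comes before Igf2r and Airn after it. Overlap between genes was not examined. Slc22a2 had a log2 difference of 0.07 (adjusted p = 0.209 in limma) with all arrays. Without SCD inhibitor 1 its difference was 0.10 and passed (adjusted p = 0.0456). Igfbp2 and Igfbp5 are neighbours of each other, as are Igfbp1 and Igfbp3, and none of these 4 passed (0 at an unadjusted p under 0.05).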
